A study of Mus musculus with 8 samples.

Results

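The genes described here are 55 genes of the cell cycle and of DNA replication, measured in double-positive (CD4+ CD8+) mouse thymocytes on 8 one-colour Affymetrix Mouse 430 2.0 arrays. They were chosen by name, and each was read through its brightest single-symbol probe set, judged by mean log2(signal + 16) over the 8 arrays. Of the 55 genes, 54 had such a probe set among 18193 genes on the array, and these 54 all passed the limit on dim signals that left 9941 genes for testing. For Ccnb1, which encodes cyclin B1, no single-symbol probe set was found, and it is not analysed here.

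The series asked what the transcription factor c-Myb does in double-positive cells before positive selection. Each array, a biological replicate per the labels, held RNA of 1 mouse aged 4 to 5 weeks, with 4 mice titled Control and 4 titled Mutant. All 8 mice carried Cd4-Cre and were Tcra-/-, so no T-cell receptor alpha chain was made and the cells could not be positively selected. The genotype field calls Control mice c-Myb sufficient and Mutant mice c-Myb deficient, whereas the source names give Control as Mybf/f Cd4-Cre Tcra-/- and Mutant as Mybf/w Cd4-Cre Tcra-/-, in which f is taken as the floxed and w as the wild-type allele. The fields conflict, so the groups are called by title, and each difference is Mutant minus Control. Cd4-Cre deletes in cells that have begun to transcribe Cd4, and cells were enriched on columns with an antibody against CD4, so no step selected for the dividing or the resting fraction.

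Entry into the cell cycle is set in G1 by D-type cyclins, which activate the kinases CDK4 and CDK6. These kinases phosphorylate RB family proteins and so release E2F factors, which switch on replication genes, while CDK inhibitors of the INK4 and CIP/KIP families hold the kinases back. Mitotic genes rise later, in G2. Many of their promoters hold CCAAT elements and CHR elements, and the DREAM and B-MYB complexes act through the CHR elements. In the thymus, immature cells divide in a burst after the pre-T-cell receptor signals, a step for which cyclin D3 is needed, and then become small resting double-positive cells.

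Promoters are shown for 3 genes, since the results divide between a cyclin that separated the groups and genes whose levels varied together from mouse to mouse. Each is the stretch of 250 bases before the transcription start, from RefSeq with build GRCm38.p6, 5′ to 3′ along the strand of the gene. Capitals mark words of 4 kinds searched on both strands: E2F words (either TTCCCGC or else TTCGCGC or otherwise TTGCCGC or lastly TTGGCGC), the CHR word TTTGAA, the word CCAAT, and Myb words (either TAACGG or else TAACTG or otherwise CAACGG or lastly CAACTG).
Ccnd3 (cyclin D3), chr17:47504801-47505050, plus strand: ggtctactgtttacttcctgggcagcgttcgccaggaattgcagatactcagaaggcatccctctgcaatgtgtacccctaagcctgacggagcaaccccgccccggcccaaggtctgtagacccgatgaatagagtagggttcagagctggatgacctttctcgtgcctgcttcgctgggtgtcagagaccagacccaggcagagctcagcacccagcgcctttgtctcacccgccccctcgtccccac
Mcm6 (a subunit of the replicative helicase), chr1:128359706-128359955, minus strand: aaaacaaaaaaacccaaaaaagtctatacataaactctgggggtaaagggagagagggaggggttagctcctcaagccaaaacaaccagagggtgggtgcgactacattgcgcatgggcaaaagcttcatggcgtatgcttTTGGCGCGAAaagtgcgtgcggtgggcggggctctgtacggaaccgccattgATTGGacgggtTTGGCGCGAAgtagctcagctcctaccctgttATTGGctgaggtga
Ccnb2 (the mitotic cyclin B2), chr9:70421555-70421804, minus strand: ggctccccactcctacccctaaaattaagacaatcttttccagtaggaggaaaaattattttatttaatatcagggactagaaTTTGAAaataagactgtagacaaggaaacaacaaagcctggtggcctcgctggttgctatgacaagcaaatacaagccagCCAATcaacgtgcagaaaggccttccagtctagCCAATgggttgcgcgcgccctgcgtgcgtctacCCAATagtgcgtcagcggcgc

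The Ccnd3 stretch, from 1 of 2 starts of the gene, held none of the 4 kinds of word. The Mcm6 stretch held a pair of E2F sites, each made of 2 overlapping words on opposite strands. It also held CCAAT at 2 places on the strand opposite the gene, printed here as ATTGG. The Ccnb2 stretch held 1 CHR word and 3 CCAAT words. Over windows of 300 bases (250 before to 50 after the start), 52 windows of 47 members were in the table, and 8 members had none there. E2F words were in 64.7% of the 17 windows of replication genes, in 13.3% of the 15 windows of mitosis genes and in 9.57% of all 32851 windows. CHR was in 66.7% of the mitosis windows, 11.8% of the replication windows and 17.9% of all windows, and CCAAT was in 71.2% of member windows against 37.4% of all. Myb words, of which CAACTG also fits the E-box pattern CANNTG, were in 17.3% of member windows and 28.3% of all windows. The windows of Cdk6 and of both Ccnd3 starts held no E2F, CHR or Myb word, while CCAAT was in the window of 1 of the 2 Ccnd3 starts. A word match describes the letters of the window only.

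Of facts on the whole series, array medians lay between 30.0 and 37.9 signal units, and every array had a 2% trimmed mean of 250. Of 3 Myb probe sets, 2 read higher on all Mutant than on all Control arrays (exact two-sided permutation p = 0.0286 each, the smallest possible), and the third differed by 0.04 (exact p = 0.714). Myb RNA thus did not settle the genotype conflict, and the position of the probes in relation to the floxed exons was not known here. Xist read 4129 to 5736 in all Mutant mice and 4359 in Control 1, but 23.4 to 36.7 in the other Control mice. High Xist thus nearly followed the titles. Differences between the groups and between Xist classes can be told apart only through Control 1. An 18S ribosomal RNA control read 7143 on Mutant 4 and 676 to 1459 elsewhere. Of 9 double-positive markers, Cd8a lay between 9755 and 11951 and Rag1 between 10569 and 12221 over all 8 arrays. Ptcra was the faintest, with means of 767 in Control and 734 in Mutant mice. In limma 4 of the 9 were called lower in Mutant mice, against 4.08% of all genes, and are named further below. Markers of cells outside the T lineage gave 0 calls in limma: 0 of 5 for macrophages and dendritic cells, 0 of 1 erythroid, 0 of 3 stromal and 0 of 2 B cell markers. At an unadjusted p under 0.05 these counts were 0, 0, 2 and 1. Their summed signals in Control and Mutant mice were 277 to 436 and 301 to 378 (macrophage and dendritic), 110 to 162 and 98.4 to 146 (erythroid), and 789 to 855 and 537 to 791 (stromal). The B cell sums did not overlap, at 7116 to 7361 and 7648 to 8584, nearly all of it from Ighm. Of these lists, Cd79a, Ebf1, Hba-a1, Col1a1 and Foxn1 were under the dim limit of 33.8 on every array, as were the natural killer and NKT markers Ncr1 and Zbtb16.

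Of the 54 measured genes, 3 of the 20 G1 regulators passed the test (15%), and 0 of the 34 genes of replication and mitosis did. G1 regulators is used here for every member outside the replication and mitosis groups. The name is loose, as the 20 include all kinase and phosphatase members, among them the mitotic kinase gene Cdk1. Cyclin D3 RNA fell by 1.06 on the log2 scale, about 2.09-fold, the kinase gene Cdk6 rose 1.35-fold, and the INK4 inhibitor gene Cdkn2d fell by 0.39 (limma adjusted p = 0.0126, 0.00866 and 0.0347). These 3 were the only members past a limma adjusted p of 0.05. They make 5.56% of the 54, with 1 higher and 2 lower, while 9.98% of all 9941 genes passed (5.89% higher and 4.08% lower), so the share of members is under the background. At an unadjusted p under 0.05 the count was 8 of 54 (14.8%), again under the 25.1% of all genes. The median log2 difference of the 54 was -0.05, and that of all genes tested was 0.02. In bulk RNA, fewer cells of a type and less RNA per cell cannot be told apart.

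**Figure D1:**
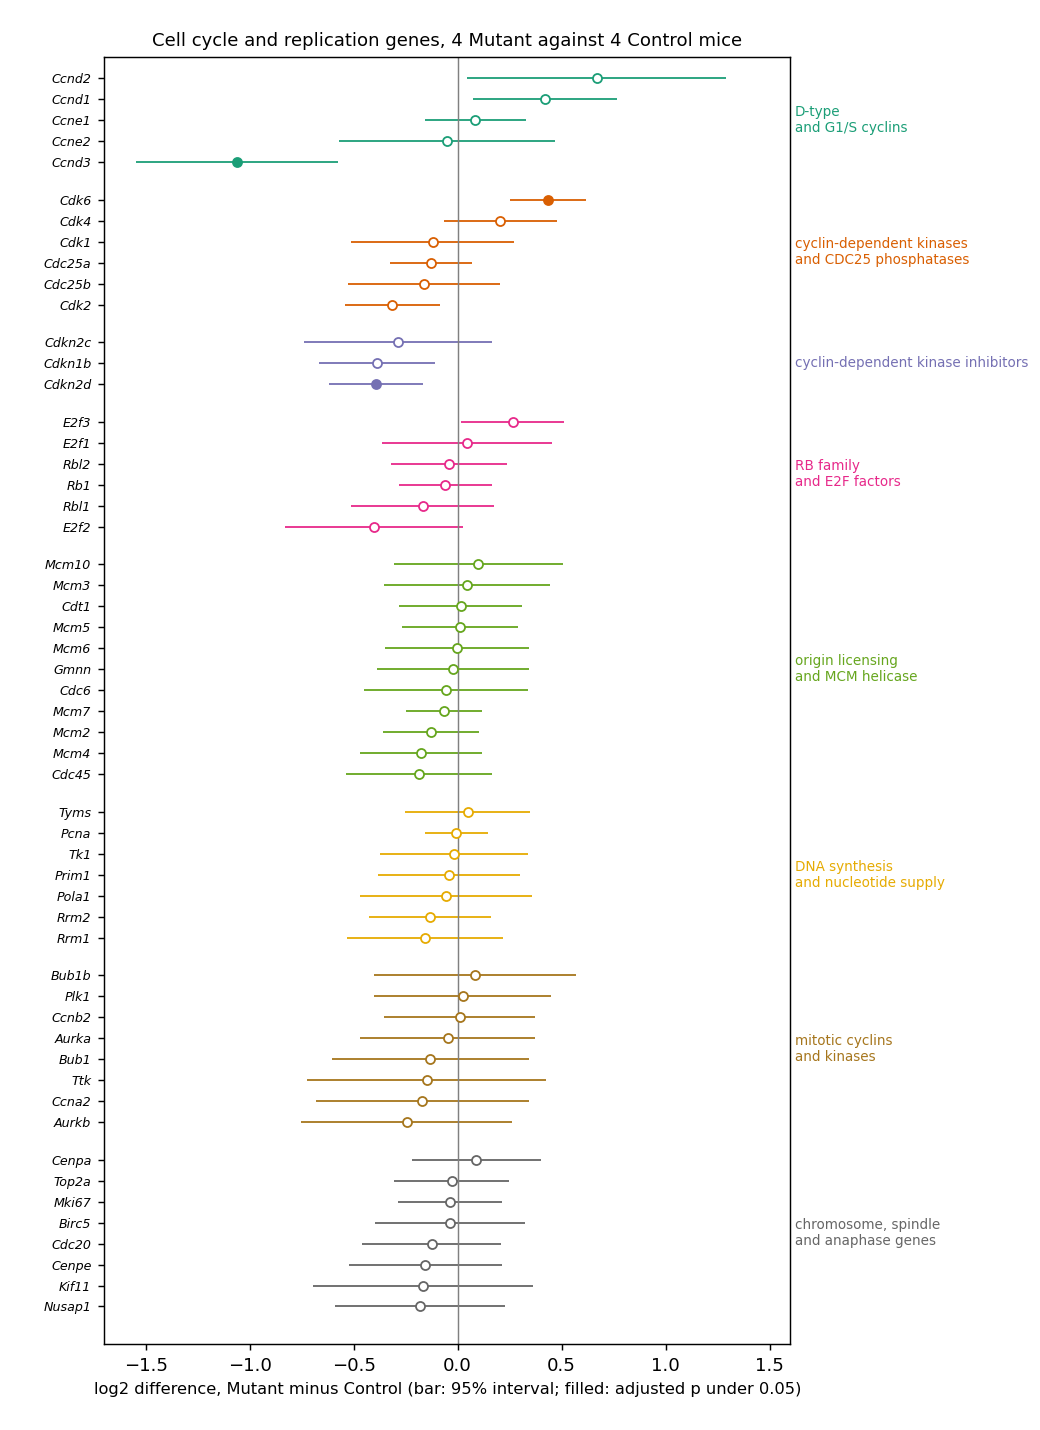
Log2 difference (Mutant minus Control, x axis) of each of the 54 measured members, grouped by role, with 95% intervals from limma over 4 mice per group; filled points have an adjusted p under 0.05. Ccnd3, Cdk6 and Cdkn2d are filled, and all 34 replication and mitosis members lie between -0.24 and 0.10.

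Ccnd3 encodes the D-type cyclin of dividing immature thymocytes. Its brightest probe set, 1415907_at, read 6815, 6088, 6032 and 5373 on Control arrays 1 to 4 and 4001, 2986, 1649 and 3548 on Mutant arrays 1 to 4. The lowest Control mouse lay above the highest Mutant mouse, and Mutant 3 stood below the other Mutant mice. The means were 6077 ± 589 and 3046 ± 1020 (SD, n = 4 each), a log2 difference of -1.06 ± 0.22 (SE, 95% interval -1.55 to -0.57). The other 2 probe sets of the gene gave the same direction.

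Probe set 1438805_at read 1904 ± 241 in Control and 782 ± 144 (SD, n = 4 each) in Mutant mice, where Mutant 1 to 4 read 677, 750, 708 and 993. Its log2 difference was -1.27 ± 0.13 (SE), with a limma adjusted p of 0.00038 over 19100 probe sets, of which 6.98% passed. Probe set 1444323_at went from 390 ± 58.0 to 180 ± 44.8 (SD, n = 4 each), a difference of -1.07 with a limma adjusted p of 0.00397. On each of the 3 probe sets the groups did not overlap. Control 1, the Control mouse with high Xist, read highest of all 8 mice on 1415907_at and on 1444323_at (470). With the Xist class as a covariate, an alternative chosen after seeing the data in which only Control 1 stands against the Mutant mice, Ccnd3 differed by -1.23 ± 0.36 (SE) with a limma adjusted p of 0.234. That limma fit called 26 genes in all and 0 members, with 3 members at an unadjusted p under 0.05. In it Cdk6 differed by 0.45 ± 0.14 and Cdkn2d by -0.38 ± 0.17 (SE), against 0.43 ± 0.08 and -0.39 ± 0.10 without the covariate (limma adjusted p = 0.254 and 0.479).

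Neither of the other D-type cyclins passed the test, and both had positive differences. Ccnd1, which encodes cyclin D1, was faint, at 40.4, 41.4, 52.8 and 39.6 in Control and 68.6, 63.9, 66.5 and 55.3 in Mutant mice. All Mutant arrays lay above all Control arrays, and the log2 difference of 0.42 ± 0.16 (SE) did not pass in limma (adjusted p = 0.120). On its second probe set past the dim limit, 1448698_at, the groups overlapped, at 26.1 to 53.4 in Control and 38.1 to 67.6 in Mutant mice. There the difference was 0.285 (limma adjusted p = 0.493 over probe sets). Ccnd2, which encodes cyclin D2, read 72.6, 119.5, 60.1 and 129.5 in Control and 134.5, 118.9, 282.5 and 123.6 in Mutant mice. The groups overlapped, Mutant 3 was highest, and the difference of 0.67 had an interval of 0.05 to 1.29 and a limma adjusted p of 0.169. All 5 Ccnd2 probe sets past the dim limit differed upward, by 0.48 to 0.85, and 0 of them were called in limma over probe sets, where each had an unadjusted p under 0.05. On 3 of the 5, all Mutant mice lay above all Control mice. The mouse with the least Ccnd3 signal on 1415907_at was thus the one with the most Ccnd2 signal on its brightest probe set. This match was noticed in the values and was not tested. Ccne1 and Ccne2, the E-type cyclins that act with CDK2 at the start of S phase, differed by 0.09 and -0.05.

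Of the 6 kinase and phosphatase genes, 1 passed the test. Cdk6, a partner of D-type cyclins, read 1212, 1100, 1317 and 1305 in Control and 1628, 1708, 1587 and 1754 in Mutant mice on probe set 1455287_at. The highest Control mouse lay below the lowest Mutant mouse, and the spread within each group was small. The means of 1234 ± 101 and 1669 ± 75.6 (SD, n = 4 each) gave a log2 difference of 0.43 ± 0.08 (SE). A second probe set, 1435338_at, went from 1055 ± 34.6 to 1272 ± 49.2 (SD, n = 4 each) with no overlap, a difference of 0.27 and a limma adjusted p of 0.0632 over probe sets. The third, 1460291_at, was near the dim limit and differed by 0.24 (limma adjusted p = 0.566).

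Cdk4, the other D-cyclin kinase, read 1403 ± 255 in Control and 1606 ± 127 (SD, n = 4 each) in Mutant mice. Its difference of 0.21 had an interval of -0.06 to 0.48 and did not pass in limma (adjusted p = 0.337). Cdk2, the kinase of E- and A-type cyclins, read 1411, 1329, 1472 and 1539 in Control and 1241, 1170, 948 and 1276 in Mutant mice. The groups did not overlap, but the difference of -0.31 ± 0.10 (SE) did not pass in limma (adjusted p = 0.0816). Cdk1, the mitotic kinase, read 2752, 1908, 2484 and 2955 in Control and 2876, 2086, 1677 and 2745 in Mutant mice, with groups that overlapped fully. Its difference was -0.12 with a limma adjusted p of 0.735. The phosphatase genes Cdc25a and Cdc25b, whose products activate CDKs, differed by -0.13 and -0.16.

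**Figure D2:**
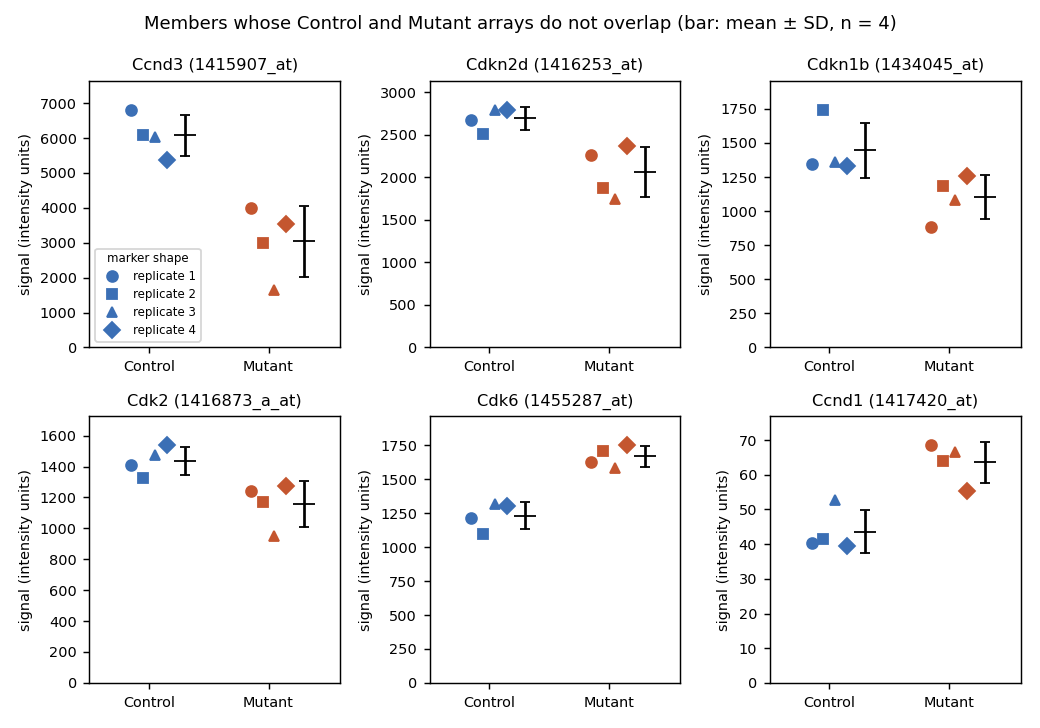
Signal of the 6 members whose 4 Control and 4 Mutant arrays do not overlap on the brightest probe set. The y axis gives linear intensity units from 0, with 1 point per mouse and marker shape by replicate number. Bars are mean ± SD (n = 4). Ccnd3, Cdkn2d, Cdkn1b and Cdk2 lie lower and Cdk6 and Ccnd1 higher in every Mutant mouse; Ccnd3, Cdk6 and Cdkn2d passed in limma.

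Of 3 CDK inhibitor genes, 1 passed the test. Cdkn2d fell in Mutant mice; its product p19INK4d blocks CDK4 and CDK6. It read 2675, 2509, 2790 and 2795 in Control and 2256, 1868, 1750 and 2371 in Mutant mice. The groups did not overlap, and Mutant 2 and Mutant 3 were lowest. The means were 2692 ± 134 and 2061 ± 299 (SD, n = 4 each), a log2 difference of -0.39 ± 0.10 (SE). This call was lost in limma without Control 1, 3 or 4 or without Mutant 2 or 3 (differences -0.40 to -0.32, adjusted p up to 0.108).

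Cdkn1b, whose product p27KIP1 restrains CDK2, read 1343, 1745, 1361 and 1332 in Control and 885, 1185, 1082 and 1257 in Mutant mice on probe set 1434045_at. No Mutant mouse reached the lowest Control mouse, and Control 2 stood above its group. The difference of -0.39 ± 0.13 (SE) did not pass over genes in limma (adjusted p = 0.0796). Its second probe set, 1419497_at, went from 127 ± 16.8 to 77.5 ± 5.82 (SD, n = 4 each), a difference of -0.61 that passed in limma over probe sets (adjusted p = 0.0238). With the mean of both probe sets Cdkn1b differed by -0.50 and passed in limma (adjusted p = 0.00596). Cdkn2c, which encodes p18INK4c, differed by -0.29 with overlapping groups and an interval of -0.74 to 0.17. On the brightest probe set of each gene, 6 of the 54 members (11.1%) had groups without overlap, against 17.0% of all genes tested. All 6 were among the 20 G1 regulators (30%).

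None of the 6 RB family and E2F genes passed, and 1 had an unadjusted p under 0.05 in limma. E2f2, an activator E2F, read 2104, 2108, 2054 and 2174 in Control and 1856, 1253, 1144 and 2416 in Mutant mice. Control mice lay within a narrow band, whereas Mutant 2 and 3 read far below it and Mutant 4 above it. The difference of -0.40 ± 0.20 (SE) had a limma adjusted p of 0.232. Of the 8 fits that left out 1 array, 1 called E2f2. That was without Mutant 4, the array with the high 18S control, at -0.60 (limma adjusted p = 0.0251). Without Mutant 2 the difference was -0.29 and without Mutant 3 it was -0.24 (limma adjusted p = 0.465 and 0.477). E2f3 differed by 0.26 with an interval of 0.02 to 0.51 (limma adjusted p = 0.172). On its other probe set past the dim limit it differed by -0.30. E2f1, Rb1, Rbl1 and Rbl2, the last 3 encoding RB and its relatives p107 and p130, differed by 0.04, -0.06, -0.17 and -0.04. The second probe set of Rbl1, 1425166_at, differed by -0.39, with overlapping groups and an interval of -0.783 to -0.005. Its limma adjusted p over probe sets was 0.219 (unadjusted 0.0474).

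Genes of replication and mitosis were bright in both groups. Of 34 measured, 0 passed in limma, 0 had an unadjusted p under 0.05, and 0 had groups that did not overlap. The median log2 difference of the 34 was -0.04, from -0.24 to 0.10, and the widest reach of their 95% intervals was -0.75 to 0.57. These values are of the brightest probe set of each gene. Over all 70 of their probe sets past the dim limit, 0 passed in limma (lowest adjusted p = 0.192), 2 had an unadjusted p under 0.05, and differences ran from -0.45 to 0.30. The 2 were of Kif11, a spindle motor gene (1452314_at, -0.38), and Bub1, a spindle checkpoint kinase gene (1438571_at, 0.30), named here after their values were seen. A change within these intervals cannot be told from none with 4 mice a group. In limma 0 of the 34 were called under each of the 22 alternatives, 0 had an unadjusted p under 0.05 in each, and the lowest limma adjusted p was 0.205.

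The 11 licensing and helicase genes, whose products load and start the MCM helicase at origins, had a median difference of -0.02. Mcm7, a subunit of that helicase, read 7242, 6781, 7168 and 8013 in Control and 7669, 7125, 5984 and 7197 in Mutant mice. The ranges overlapped, with the highest mouse in Control and the lowest in Mutant, and the difference was -0.07 (interval -0.25 to 0.12). Cdc45, which joins the helicase to the replication fork, differed by -0.18 (interval -0.53 to 0.17, limma adjusted p = 0.528). Gmnn, which encodes the licensing inhibitor geminin, and its target Cdt1 differed by -0.02 and 0.01.

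The 7 genes of DNA synthesis and nucleotide supply had a median difference of -0.04. Pcna, the sliding clamp of DNA polymerases, read 12370, 11637, 11894 and 12649 in Control and 13207, 12354, 10557 and 12373 in Mutant mice. Both the highest and the lowest reading were in Mutant mice, and the difference of -0.01 had the narrowest interval of the 34 genes, -0.16 to 0.15. Rrm1, a ribonucleotide reductase subunit, read 3593 ± 860 and 3201 ± 655 (SD, n = 4 each), a difference of -0.16 (limma adjusted p = 0.626). Rrm2, Tyms, Tk1, Pola1 and Prim1 differed by -0.13 to 0.05.

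The 8 mitotic cyclins and kinases had a median difference of -0.09, and the 8 chromosome, spindle and anaphase genes one of -0.08. Ccnb2 read 3187, 2388, 3353 and 3639 in Control and 3862, 3034, 2300 and 3546 in Mutant mice. Each group held high and low mice, and the difference was 0.01 (interval -0.35 to 0.37). Aurkb, the kinase of the chromosomal passenger complex, read 953, 667, 1044 and 1298 in Control and 1048, 787, 526 and 992 in Mutant mice. Its difference of -0.24 was the largest in size among the brightest probe sets of the 34 genes, with a limma adjusted p of 0.567, and its other probe set differed by -0.01.

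Top2a, the topoisomerase that untangles chromosomes, read 6520, 5608, 6493 and 7353 in Control and 7060, 6398, 4855 and 7354 in Mutant mice. Its highest Control and Mutant mice read nearly alike, and the difference was -0.03 (interval -0.30 to 0.25). Nusap1, a spindle protein gene, read 4180 ± 888 and 3708 ± 886 (SD, n = 4 each), a difference of -0.18 with a limma adjusted p of 0.605. Mki67, which encodes the proliferation marker Ki-67, differed by -0.04 with an interval of -0.28 to 0.21.

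**Figure D3:**
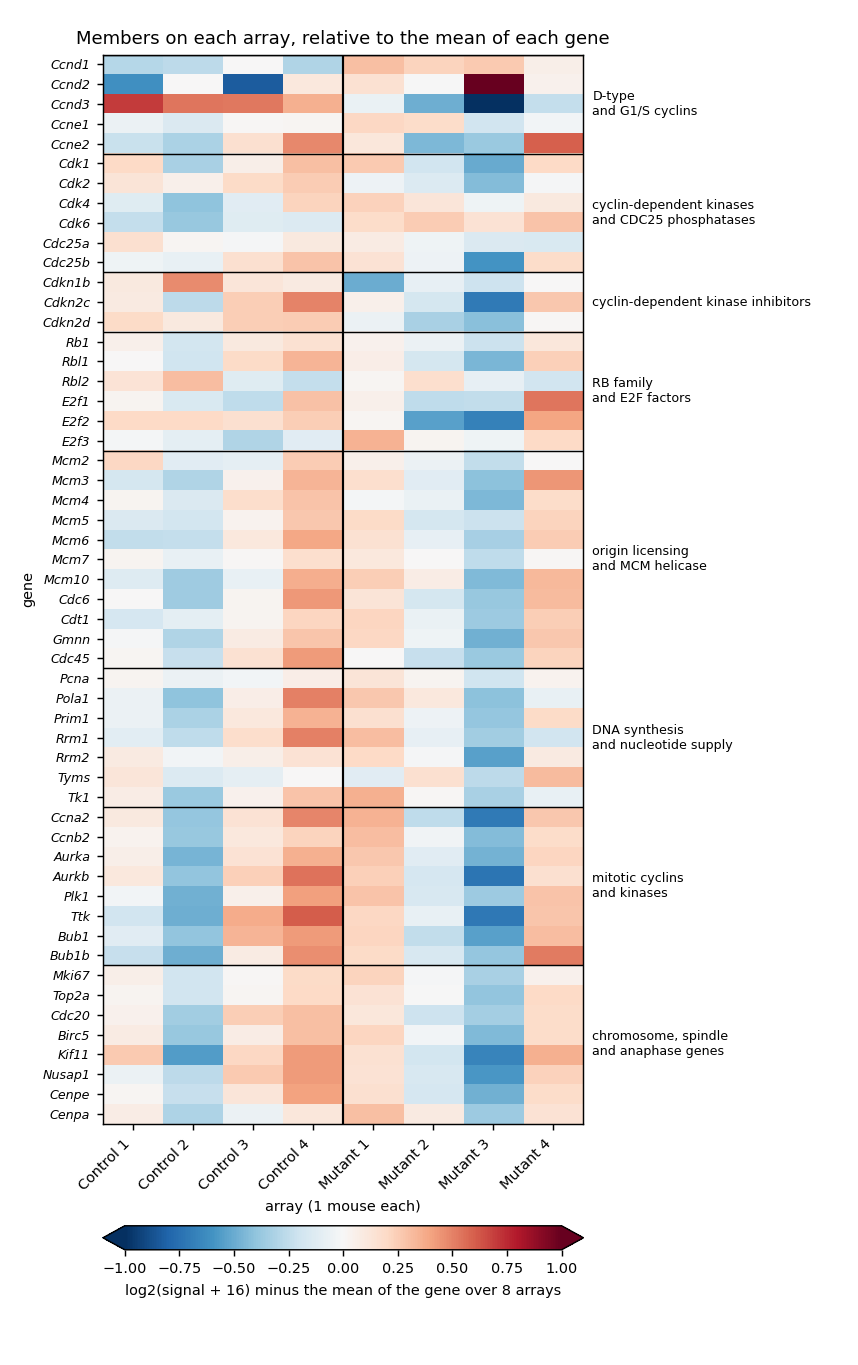
Log2(signal + 16) of the 54 measured members on each array minus the mean of the gene over the 8 arrays (colour, limited to -1 to 1; columns are mice, rows are genes grouped by role). Mutant 3 and Control 2 are blue and Control 4 red over nearly all replication and mitosis rows, while the Ccnd3 row divides by group.

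What these 34 genes shared was the order of the mice. Mutant 3 was the lowest Mutant mouse for 34 of 34 genes and the lowest of all 8 for 30, against 29.8% and 17.1% of all genes tested. Control 2 was the lowest Control mouse for 32 of 34 and Control 4 the highest for 33 of 34, against 30.8% and 26.9% of all genes. For the 20 G1 regulators the same counts were 13 (Mutant 3 lowest in its group), 11 (Control 2 lowest) and 13 (Control 4 highest). Cdk1, the mitotic kinase gene counted among the 20, followed all of this order. Ccna2, which encodes the S and G2 phase cyclin A2, shows the range: 3303, 2348, 3416 and 4321 in Control and 3924, 2589, 1882 and 3721 in Mutant mice. Within either group the highest mouse read far above the lowest, and the group means of 3347 and 3029 lay between them.

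By role, the median deviation of the mitotic cyclins and kinases from the mean of each gene was -0.51 on Mutant 3, -0.43 on Control 2 and 0.44 on Control 4. The licensing and helicase genes gave -0.37, -0.23 and 0.29 on the same arrays, and all genes tested gave 0, -0.01 and 0. The spread between mice was thus larger than the difference between the groups. The median SD within groups was 0.40 for the mitotic cyclins and kinases, 0.28 for all 54 members and 0.18 for all genes tested. These arrays were picked out after seeing the values, and the counts are a description with no test.

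**Figure D4:**
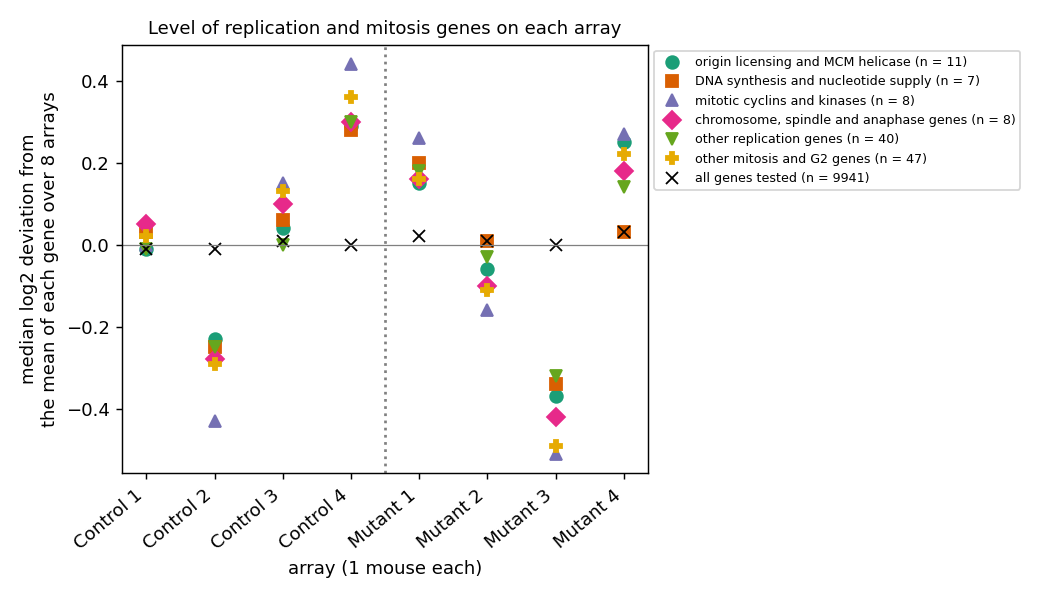
Median deviation of gene groups on each array from the mean of each gene over 8 arrays (y axis, log2 scale; 1 symbol per gene group, with the number of genes in the legend). Replication and mitosis groups lie lowest on Mutant 3 and Control 2 and highest on Control 4, and the crosses for all genes stay between -0.01 and 0.03.

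Some G1 regulators above followed part of the order of the mice, and its part in their differences was not tested. Mutant 3 and Mutant 2, the Mutant mice with low replication and mitosis levels, also read lowest for Cdkn2d and Cdk2, and Control 2 read lowest among Control mice for both. Mutant 3 and Mutant 2 read lowest for Ccnd3 on 1415907_at too, where Control 4 was the lowest Control mouse. On its probe set 1438805_at Control 2 was lowest and Control 4 highest among Control mice, but Mutant 1 was the lowest Mutant mouse. Without Mutant 3 the log2 difference was -0.32 for Cdkn2d (limma adjusted p = 0.0909) and -0.22 for Cdk2. Cdk2 had not passed with all arrays, and the Cdkn2d call was also lost without Control 1, Control 3, Control 4 or Mutant 2. Ccnd3 and Cdk6 kept their calls when any 1 array was left out, with differences of -1.22 to -0.79 and 0.38 to 0.47. Without Mutant 3, Ccnd3 differed by -0.79, against -1.06 with all arrays.

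A wider list of 123 other cell cycle genes could be tested for 115. Of the 115, 1 passed in limma (0.87%, against 9.98% of all genes), 6 had an unadjusted p under 0.05, and the median log2 difference was -0.06. The call was Ccng2, which encodes cyclin G2, an atypical cyclin linked to cell cycle arrest. It read 5575, 6320, 7022 and 6318 in Control and 5138, 4516, 4702 and 5548 in Mutant mice. The highest Mutant mouse lay just under the lowest Control mouse, and the gene fell by 0.34 ± 0.09 (SE, limma adjusted p = 0.0316). Its second probe set fell by 0.58 (limma adjusted p = 0.00838 over probe sets). The call over genes was lost without Control 2, Control 3, Control 4, Mutant 1, Mutant 2 or Mutant 3.

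The 40 other replication genes and the 47 other mitosis and G2 genes had 0 calls in limma, with 2 and 0 at an unadjusted p under 0.05. Their median differences were 0.01 and -0.10. They followed the order of the mice already described, as the other mitosis and G2 genes had a median deviation of -0.49 on Mutant 3, -0.29 on Control 2 and 0.36 on Control 4. The 28 other regulators, which include E2F and CDK inhibitor family members, had 1 call, that of Ccng2.

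Some markers of thymocyte stages also differed between the groups in limma, where 5.89% of all genes tested were called higher and 4.08% lower. Of 7 tested markers of earlier, double-negative stages 3 were higher (Il2ra, Notch1 and Dtx1), and the summed signal of that list was 1182 to 2066 in Control and 2705 to 5638 in Mutant mice. Of 4 tested markers of mature cells 3 were higher, at sums of 260 to 515 and 1377 to 2513. Of 9 double-positive markers 4 were lower (Rag2, Dntt, Cd1d1 and Arpp21), at sums of 57885 to 61189 and 52052 to 56044. Of 3 natural killer, NKT and gamma-delta markers 1, Gzma, was higher, at sums of 2031 to 2563 and 3100 to 4269. No marker of the first 3 lists was under the dim limit on all arrays. Their part in the differences of Ccnd3, Cdk6 and Cdkn2d was not tested.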

How the data were processed

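Total RNA of CD4-enriched thymocytes from 8 mice was hybridised as biotin-labelled cRNA, 1 array per mouse, per the labels. The deposited values are linear intensities, made by the authors with GCOS, per the submitters' processing notes; the version and settings of that software were not stated. All arrays shared a 2% trimmed mean, and scaling of this kind removes differences in total RNA per cell. The number of arrays limits the precision.

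Intensities were used as deposited, as log2(signal + 16), a scale that understates fold changes of dim genes. Of 45101 probe sets, 64 controls were left out, and 34945 had 1 gene symbol, 932 several and 9160 none in the platform annotation. A probe set was kept above a signal of 33.8, the median of the table, on at least 4 arrays. Each gene was its brightest kept single-symbol probe set. The test was limma 3.58.1, run under R 4.3.3 (lmFit, eBayes with a variance trend, two-sided) over 9941 genes, with Benjamini-Hochberg adjustment and a threshold of 0.05. A second fit over 19100 probe sets served for genes with several probe sets. Myb was tested by exact permutation over 70 labellings. The method was tested on simulated data. Figures were drawn with matplotlib 3.10.9 under Python 3.11.15.

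Genes with values on every array were members called, members whose groups do not overlap, and per role the brightest member and the one with the largest difference; of the wider list, called genes. Others are named to complete a family, among them Ccnd2, which is given on every array though outside this rule. Ccna2 and Mki67 were chosen after their values were seen. Members, lists and marker lists were chosen with earlier results of these data known. Same-numbered mice did not deviate together in a steady way: the correlations of their deviations from group means were 0.0, 0.17, -0.27 and 0.36. Replicate numbers were therefore not used as pairs in the main fit. A fit with the replicate number as a block is among the alternatives. Alternatives changed the pseudocount, normalization, dim filter, probe set choice, variance model, weights, threshold and block, or left out each array.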

Additional observations from a re-analysis of the deposited data

Results flagged for a closer look

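In 2 of the 34 groups of 4 arrays examined, 1 mouse lay far from the other 3 of its group, and chance alone flags about 1 in 20 groups. Cdkn1b, the p27KIP1 gene, read 1744.6 in Control 2 and 1332 to 1361 in the other Control mice. Ccnd1, the cyclin D1 gene, read 52.8 in Control 3 and 39.6 to 41.4 in the other Control mice, which is close to the dim limit.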

How the results depend on the processing

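The count of 3 called members became 1 with arrays scaled to the same median (Ccnd3), 5 with array weights, 1 at a threshold of 0.01 (Cdk6), and 2 to 5 when each array was left out in turn. The highest count with 1 array left out came without Mutant 4, where Cdkn1b and E2f2 were added. With no variance trend the count stayed at 3, but Ccnd1 passed (limma adjusted p = 0.036) in place of Cdkn2d. It also stayed at 3 with the mean of the probe sets, where Cdkn1b passed in place of Cdk6. With the Xist class as a covariate, chosen after seeing the data, limma called 0 members (3 at an unadjusted p under 0.05), with differences of -1.23 for Ccnd3, 0.45 for Cdk6 and -0.38 for Cdkn2d. For all genes the count of 992 went to 1745 with array weights, 371 at 0.01, 26 with the Xist class, and 502 to 1194 with 1 array left out; it was 502 without Control 3, 607 without Mutant 1, 515 without Mutant 2 and 578 without Mutant 3. For the other cell cycle genes the count of 1 became 0 in limma with no dim filter, with no variance trend, at 0.01 and with the Xist class (unadjusted p under 0.05 in 6, 5, 6 and 0), 3 with array weights, and 0 to 2 with 1 array left out. With the same median, and without Control 4, that count stayed at 1, but the gene called was Tfdp2 and not Ccng2. The replicate block gave 4 members (Cdkn1b added), 1035 genes and 3 other cell cycle genes. Of the Myb probe sets, 1 rather than 2 passed in limma over probe sets. Cdk6 lost its call with arrays scaled to the same median and with the mean of its probe sets (0.31, limma adjusted p = 0.0508), and Cdkn2d with the same median, no dim filter or no variance trend (limma adjusted p = 0.111, 0.0555 and 0.0683). No called member changed direction under any of these alternatives. The causes were not tested.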
